A study of Mus musculus with 64 samples.

Results

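The liver of HuMgat2 mice was compared with the liver of wild-type (WT) mice on chow, using 8 of the 16 RNA-sequencing libraries of the series. The 8 libraries were taken by the genotype and diet in their names, 4 from HuMgat2 mice (libraries 13 to 16) and 4 from WT mice (libraries 5 to 8), and the comparison was described across all genes. HuMgat2 mice are humanized for monoacylglycerol acyltransferase 2 and express human MOGAT2. The WT mice carry the mouse gene, called mMgat2 in the labels and Mogat2 in the annotation. All 8 libraries came from mice kept on chow for 16 weeks, with liver taken at the end. The other 8 libraries, 4 from WT and 4 from HuMgat2 mice kept on a high-fat diet (HFD) for the same time, shared the fit and serve as a second setting for the same genotypes. The labels used here give no strain, sex, age, collection time or promoter for the human gene. They do not say that each library is a separate mouse, so p-values measure the spread between libraries, which may be technical.

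Monoacylglycerol acyltransferases join a fatty acid to monoacylglycerol and so make diacylglycerol. Diacylglycerol acyltransferases add the last fatty acid to give triglyceride. MOGAT2 is best known from the small intestine, where it rebuilds triglyceride from absorbed dietary fat, and mouse liver normally holds little of it. A liver comparison between these genotypes on chow therefore asks what differs outside the tissue where the enzyme is most abundant, and without a fat-rich diet.

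The 8 chow libraries held 19.4 to 25.6 M counts each, and levels are given as CPM, counts scaled to the size of the library. CPM does not account for gene length, so levels are compared within a gene only. Albumin (Alb), the main plasma protein made by hepatocytes, took 3.26% to 6.02% of counts. The summed level of 13 hepatocyte markers was 110000 to 129000 CPM in WT and 107000 to 133000 CPM in HuMgat2, so the tissue label held. Rank correlations between libraries were 0.982 to 0.989 within WT, 0.978 to 0.984 within HuMgat2 and 0.973 to 0.984 between them. Mitochondrial genes took 5.32% to 13% of counts, with HuMgat2 library 13 highest, followed by WT library 8 at 10.1%. Of the HFD libraries, WT library 4 stood apart, with 12.4 M counts and 0.85% albumin. It is in neither group of the chow comparison but entered the shared estimate of the spread and the filter on low counts, and results are given with and without it where it mattered.

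Few genes passed the adjusted threshold between the genotypes on chow. Of 17318 genes tested, 88 (0.508%) passed an adjusted p of 0.05 in edgeR's quasi-likelihood test, 46 higher (0.266%) and 42 lower (0.243%) in HuMgat2. The median log2 difference over all tested genes was 0.0044. In 87 of the 88 the 4 HuMgat2 libraries lay beyond all 4 WT libraries, which was so for 6.62% of all tested genes. The exception was Btg2, an antiproliferative gene. At least a 2-fold difference was seen in 65 of the 88, and the smallest was 1.34-fold. Without regard to multiple testing, an unadjusted p below 0.05 was reached by 965 genes in the higher (5.57%) and 898 in the lower direction (5.19%). Both directions together held 1863 of 17318 genes, where a share of 0.05 would come without any difference. More genes may therefore differ than the 88 called. By the same test on HFD, 1249 genes were higher (7.21%) and 1309 lower (7.56%) in HuMgat2. Without WT HFD library 4 in the shared fit, the chow counts were 112 higher and 92 lower, and all 88 genes were among them. With only the 8 chow libraries fitted they were 53 and 42, with 65 of the 88 among them. Leaving out WT library 5 gave 27 higher and 26 lower, and leaving out HuMgat2 library 13 gave 27 higher.

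**Figure D1:**
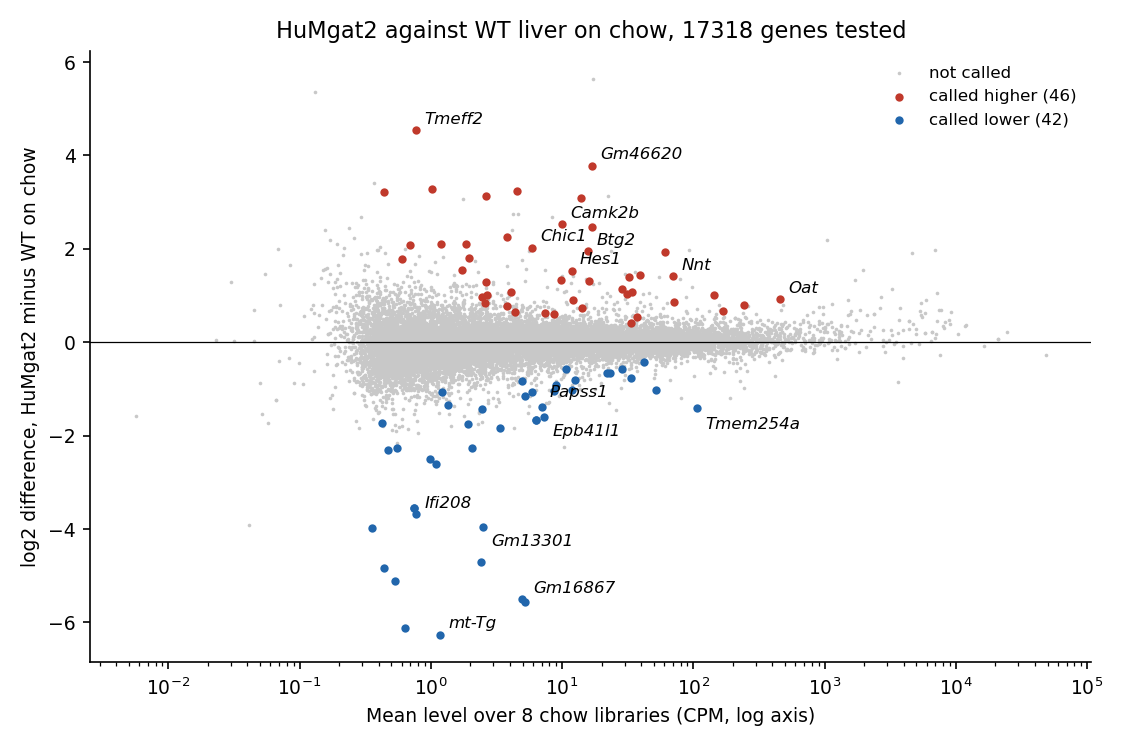
Each point is 1 of the 17318 genes tested on chow, with its mean level over the 8 chow libraries (CPM, log axis) against the log2 difference of HuMgat2 minus WT. The 46 called higher (red) and 42 called lower (blue) genes average at most 458 CPM, the level of Oat, with no call among the more abundant genes, and mt-Tg at -6.26 and Tmeff2 at 4.54 mark the extremes of the called genes.

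The targeted gene itself could not be followed in liver. Mouse Mogat2 (ENSMUSG00000052396) had 1, 0, 2 and 1 counts in the WT libraries and 1, 0, 1 and 1 in the HuMgat2 libraries. Both groups were near 0 and it was too low to be tested, so it does not check the genotype labels, and the human transcript is not an entry of the mouse annotation. The related Mogat1 was also low, at 0.232 ± 0.14 CPM in WT and 0.337 ± 0.295 CPM in HuMgat2 (SD, n = 4 each), with a log2 difference of 0.46 ± 0.75 SE (adjusted p = 0.88). Dgat2, the main triglyceride-forming enzyme of liver and a neighbour of Mogat2 on chromosome 7, held 269, 227, 309 and 243 CPM in WT and 169, 215, 183 and 238 CPM in HuMgat2. The groups overlapped, and the log2 difference was -0.38 ± 0.13 SE (adjusted p = 0.258). On HFD Dgat2 was called lower in HuMgat2 without overlap (log2 difference -0.63, adjusted p = 0.00402). The interaction was not called for it (adjusted p = 0.502). Dgat1, an enzyme of another family with the same reaction, stood at 10 ± 1.48 and 9.19 ± 1.63 CPM (log2 difference -0.12, adjusted p = 0.853). None of the 31 genes tested within 1 Mb of Mogat2, the 100 within 5 Mb or the 183 within 10 Mb was called by edgeR, where 0.508% of all genes were, so windows of this size would hold few calls in any case. Within 10 Mb, 15 of the 183 had an unadjusted p below 0.05, 10 higher and 5 lower, beside 5.57% and 5.19% of all genes, and DESeq2 called 2.

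Lists of genes that act in fat handling held no called member among 157 entries on chow, beside 0.508% called over all genes. This was so for glycerolipid synthesis (19 tested), lipid droplets and lipolysis (20), fatty acid uptake (19), de novo lipogenesis (19), fatty acid oxidation with PPAR alpha targets (32), cholesterol synthesis (24) and bile acids (24). Their median log2 differences lay between -0.15 and 0.059, and unadjusted p was below 0.05 for 3 members higher and 4 lower in all, beside 5.57% and 5.19% of all genes. Fatty acid synthase (Fasn) averaged 747 ± 159 CPM in WT and 676 ± 88.4 CPM in HuMgat2 (log2 difference -0.15 ± 0.31 SE, adjusted p = 0.918). The fatty acid transporter Cd36 averaged 56.9 ± 15.7 and 45.6 ± 3.79 CPM (log2 difference -0.32, adjusted p = 0.623), and on HFD its log2 difference was 1.63 (adjusted p = 9.32e-05). The droplet coat protein Plin2 averaged 215 ± 30.5 and 233 ± 52.3 CPM on chow (log2 difference 0.12, adjusted p = 0.889). On HFD the same 7 lists held 64 of 157 entries called higher and 10 called lower, counted list by list, beside 7.21% and 7.56% of all genes. A gene of fat handling that did pass, though in none of these lists, was Soat2, which makes cholesterol esters in hepatocytes. It held 37.8, 34.3, 35.3 and 30.3 CPM in WT and 19.7, 26.7, 22.8 and 23.5 CPM in HuMgat2. The groups did not overlap, and Soat2 fell by 0.57 on the log2 scale (SE 0.10, adjusted p = 0.0123). Its call ended without WT library 5 or 6 or HuMgat2 library 13 and with the 8 chow libraries alone, at adjusted p up to 0.0637.

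The list with the most members at an unadjusted p below 0.05 was that of the urea cycle and amino acid metabolism, the set of liver enzymes that strip nitrogen from amino acids and turn it into urea. Of its 30 members 28 had a positive log2 difference, 16 of them at that level, against 5.57% of all genes in that direction, and 0 were lower at that level. Only 2 passed the adjusted threshold. The median log2 difference of the list was 0.39, beside 0.0044 over all genes. Taken library by library against the WT chow mean, the median member stood at 0.45, 0.60, 0.25 and 0.24 in HuMgat2 libraries 13 to 16 and between -0.05 and 0.03 in the WT libraries. The list's median was 0.29 without HuMgat2 library 14 and 0.38 to 0.42 without any other chow library.

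Oat, ornithine aminotransferase (ENSMUSG00000030934, GRCm39 chromosome 7, 132159207 to 132178127), held 266, 331, 315 and 349 CPM in WT. In HuMgat2 it held 532, 656, 625 and 585 CPM, so every HuMgat2 library was above every WT library. Oat rose 1.9-fold (log2 difference 0.93 ± 0.15 SE, adjusted p = 0.00339). Cth, cystathionine gamma-lyase of the transsulfuration pathway, held 168 to 182 CPM in the 4 WT libraries and 318, 428, 270 and 228 CPM in HuMgat2. The WT libraries were close together and the HuMgat2 libraries spread upwards from them. Cth rose 1.75-fold (log2 difference 0.81 ± 0.16 SE, adjusted p = 0.0224). Its call ended without any 1 of the WT libraries or HuMgat2 library 13 and with the 8 chow libraries alone, at adjusted p up to 0.0986.

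The next members by adjusted p did not pass but had no overlap between the groups. Proline dehydrogenase (Prodh) held 61.7 to 72.8 CPM in WT and 90.9 to 128 CPM in HuMgat2 (log2 difference 0.66 ± 0.15 SE, adjusted p = 0.0628). Liver glutaminase (Gls2) held 169 to 209 CPM and 241 to 500 CPM (log2 difference 0.77 ± 0.18 SE, adjusted p = 0.0731). The cytosolic aspartate aminotransferase Got1 held 46.4 to 78.1 CPM and 84.2 to 259 CPM (log2 difference 1.18 ± 0.28 SE, adjusted p = 0.0829). HuMgat2 library 14 was the highest library for Cth, Gls2 and Got1. The urea cycle enzyme Ass1 held 1760 to 2060 CPM and 2580 to 4620 CPM (log2 difference 0.74, adjusted p = 0.108), again with library 14 highest. Cps1, which starts the cycle, held 3770 to 4330 CPM in WT and 4230 to 5110 CPM in HuMgat2, with overlap (log2 difference 0.28, adjusted p = 0.596). The lowest member was Csad, which makes hypotaurine, at 246 to 394 CPM in WT and 66.8 to 277 CPM in HuMgat2 (log2 difference -0.99 ± 0.47 SE, adjusted p = 0.47). With DESeq2 9 members passed, with limma voom 6, without a filter on low counts 5 and without WT HFD library 4 6.

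On HFD the same list did not keep this direction. There 20 of the 30 members had a negative log2 difference, the median was -0.1, and 1 member was called higher and 6 lower. The interaction test, which asks whether the genotype difference is the same on both diets, called 844 of all genes (4.87%). It called 11 of the 30 members, 10 with a lower genotype difference on HFD than on chow and 1, Csad, with a higher. For Oat the genotype difference was lower on HFD by 1.35 on the log2 scale (SE 0.21, adjusted p = 0.00126), and Hpd, of tyrosine breakdown, had a log2 difference of 0.40 on chow and -0.67 on HFD (interaction adjusted p = 0.0029).

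**Figure D2:**
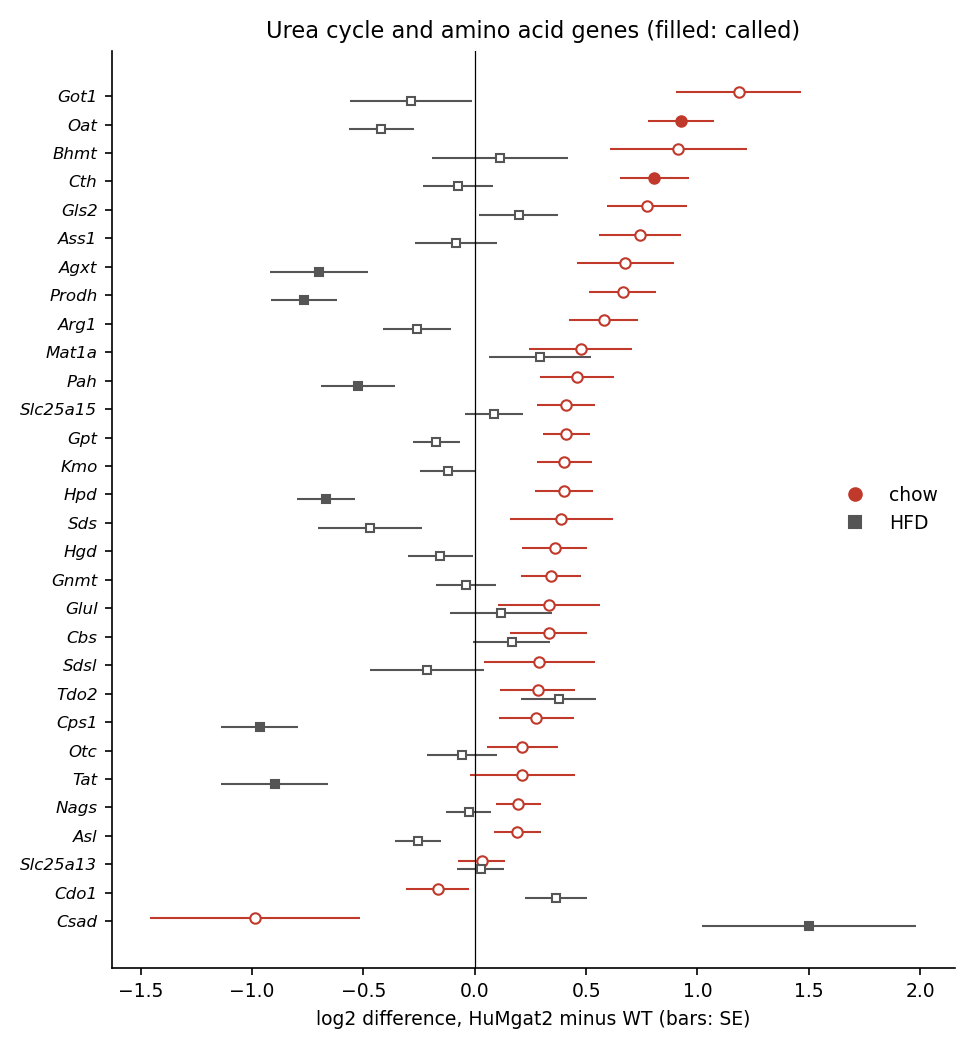
Log2 difference of HuMgat2 minus WT with its SE for each of the 30 urea cycle and amino acid genes, on chow (circles) and on HFD (squares), filled where called. The chow points lie right of 0 for 28 genes and the HFD points left of 0 for 20.

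Sulfate activation showed opposite changes in its isozymes. Papss1 and Papss2 both make PAPS, the sulfate donor for sulfotransferases, and Papss2 is the more abundant in liver. Papss1 held 9.45, 11.3, 8.43 and 11.3 CPM in WT and 3.81, 4.52, 3.22 and 3.79 CPM in HuMgat2. Papss2 held 125, 141, 111 and 143 CPM in WT and 238, 232, 191 and 172 CPM in HuMgat2. Neither overlapped between the groups. Papss1 fell 2.63-fold (log2 difference -1.39 ± 0.15 SE, adjusted p = 6.94e-05) and Papss2 rose 1.6-fold (log2 difference 0.68 ± 0.12 SE, adjusted p = 0.00976). The call of Papss2 ended without WT library 5 (adjusted p = 0.0512). On HFD both were lower in HuMgat2, Papss1 by 0.58 and Papss2 by 0.51 on the log2 scale (adjusted p = 0.0141 and 0.00905).

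Among kinases and transcription regulators, Camk2b, Hes1 and Pim1 rose. Camk2b (ENSMUSG00000057897, chromosome 11, 5919644 to 6016362), a subunit of calcium/calmodulin-dependent kinase II, held 2.55, 3.15, 3.17 and 2.92 CPM in WT and 18.3, 16.4, 19.7 and 14.1 CPM in HuMgat2. It was the largest increase among genes that carry a full name and averaged at least 1 CPM, 5.79-fold (log2 difference 2.53 ± 0.28 SE, adjusted p = 8.67e-05). On HFD the WT libraries held 12.8, 14.5, 21.8 and 5.88 CPM, above all WT chow libraries, and the HuMgat2 libraries 18 to 26.7 CPM. The genotype difference there was 0.65 on the log2 scale and was not called (adjusted p = 0.0887), and the interaction was called (adjusted p = 0.00692).

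Hes1, a transcriptional repressor downstream of Notch, held 6.61, 5.64, 5.58 and 6.48 CPM in WT and 19.6, 22, 16.4 and 12.3 CPM in HuMgat2. The lowest HuMgat2 library was well above the highest WT library, and Hes1 rose 2.89-fold (log2 difference 1.53 ± 0.18 SE, adjusted p = 0.00019). Pim1, a kinase induced by cytokine signalling, held 15.7, 21, 18.2 and 17 CPM in WT and 37.9, 36.1, 48.3 and 35.4 CPM in HuMgat2, a 2.19-fold rise (log2 difference 1.13 ± 0.14 SE, adjusted p = 0.000207). On HFD Pim1 ran the other way, at 32.5 to 37.4 CPM in WT and 13.9 to 22.2 CPM in HuMgat2 (log2 difference -0.91, adjusted p = 0.000392; interaction adjusted p = 5.7e-05). Mnt, a repressor that partners MAX, rose 1.66-fold on chow (log2 difference 0.73 ± 0.13 SE, adjusted p = 0.00823). Mnt, Zpr1, Tmeff2, Hdc, Ppp1r10, Tmem254a, Slc2a1, Arhgef37, Hmgn2, Pxmp2, Cnbd2, Cep85, Pcdh18, Il22ra1, Hes1, Papss1, Papss2 and Soat2 were named after their values were seen.

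Other named genes at the upper end were low in WT liver. The gastric proton pump subunit Atp4a held 0.378 to 0.601 CPM in WT and 1.5 to 2.39 CPM in HuMgat2 (log2 difference 2.11 ± 0.32 SE, adjusted p = 0.00208). Chic1, on the X chromosome, held 1.37 to 3.05 CPM in WT and 4.97 to 13.1 CPM in HuMgat2 (log2 difference 2.03 ± 0.30 SE, adjusted p = 0.0018). Tmeff2, a transmembrane protein with follistatin-like domains, held 5 counts over the WT libraries and 125 over the HuMgat2 libraries, 0.0453 to 0.0925 against 0.71 to 2.39 CPM. Its log2 difference was 4.54 ± 0.52 SE (adjusted p = 0.000139) on chow and 0.24 on HFD (adjusted p = 0.839), where both genotypes were at most at 0.203 CPM. None of these 3 overlapped between the groups on chow. Among called genes that averaged at least 1 CPM and did not overlap between the groups, the 12 largest increases were Camk2b, Atp4a, Chic1 and 9 predicted genes without a described role. Gm46620 was the highest of them by fold, at 2.03 to 2.55 CPM in WT and 24.7 to 36 CPM in HuMgat2 (13.8-fold, adjusted p = 1.49e-09). The rest (Gm46223, Gm4316, Gm42427, Gm49980, Gm42031, Gm12718, Gm37416 and Gm43305) rose 3.83-fold to 9.67-fold.

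Among the genes that fell, several encode well-known enzymes or regulators. Hdc, which makes histamine from histidine, held 11.4, 12.6, 12.2 and 11.2 CPM in WT and 6.13, 6.49, 5.64 and 6.69 CPM in HuMgat2. The groups were tight and separate, and Hdc fell 1.89-fold (log2 difference -0.92 ± 0.13 SE, adjusted p = 0.00123). Ppp1r10, a nuclear regulator of protein phosphatase 1, held 56.7 to 82.9 CPM in WT and 29.5 to 36.8 CPM in HuMgat2 (log2 difference -1.03 ± 0.13 SE, adjusted p = 0.000263). On HFD its log2 difference was -0.09 (adjusted p = 0.661; interaction adjusted p = 0.00602). The zinc finger protein Zpr1 held 32.9 to 49.7 CPM and 24.3 to 24.9 CPM (log2 difference -0.77 ± 0.13 SE, adjusted p = 0.00556). Epb41l1, a cytoskeletal linker protein, held 13.3, 6.29, 15.2 and 9.34 CPM in WT and 3.94, 4.67, 3.06 and 2.72 CPM in HuMgat2. It fell 3.06-fold (adjusted p = 0.00199), and on HFD both genotypes stood at 2.19 to 3.85 CPM. Rwdd2a fell 4.78-fold from 1.31 to 5.27 CPM in WT to 0.591 to 0.797 CPM in HuMgat2 (adjusted p = 0.0185). Its call ended without WT library 5 or 6 or HuMgat2 library 13, 15 or 16, and in limma voom, at adjusted p up to 0.112. Among the called genes chosen in the same way, the 12 largest decreases were Epb41l1, Rwdd2a, mt-Tg and 9 genes with predicted or provisional names.

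**Figure D3:**
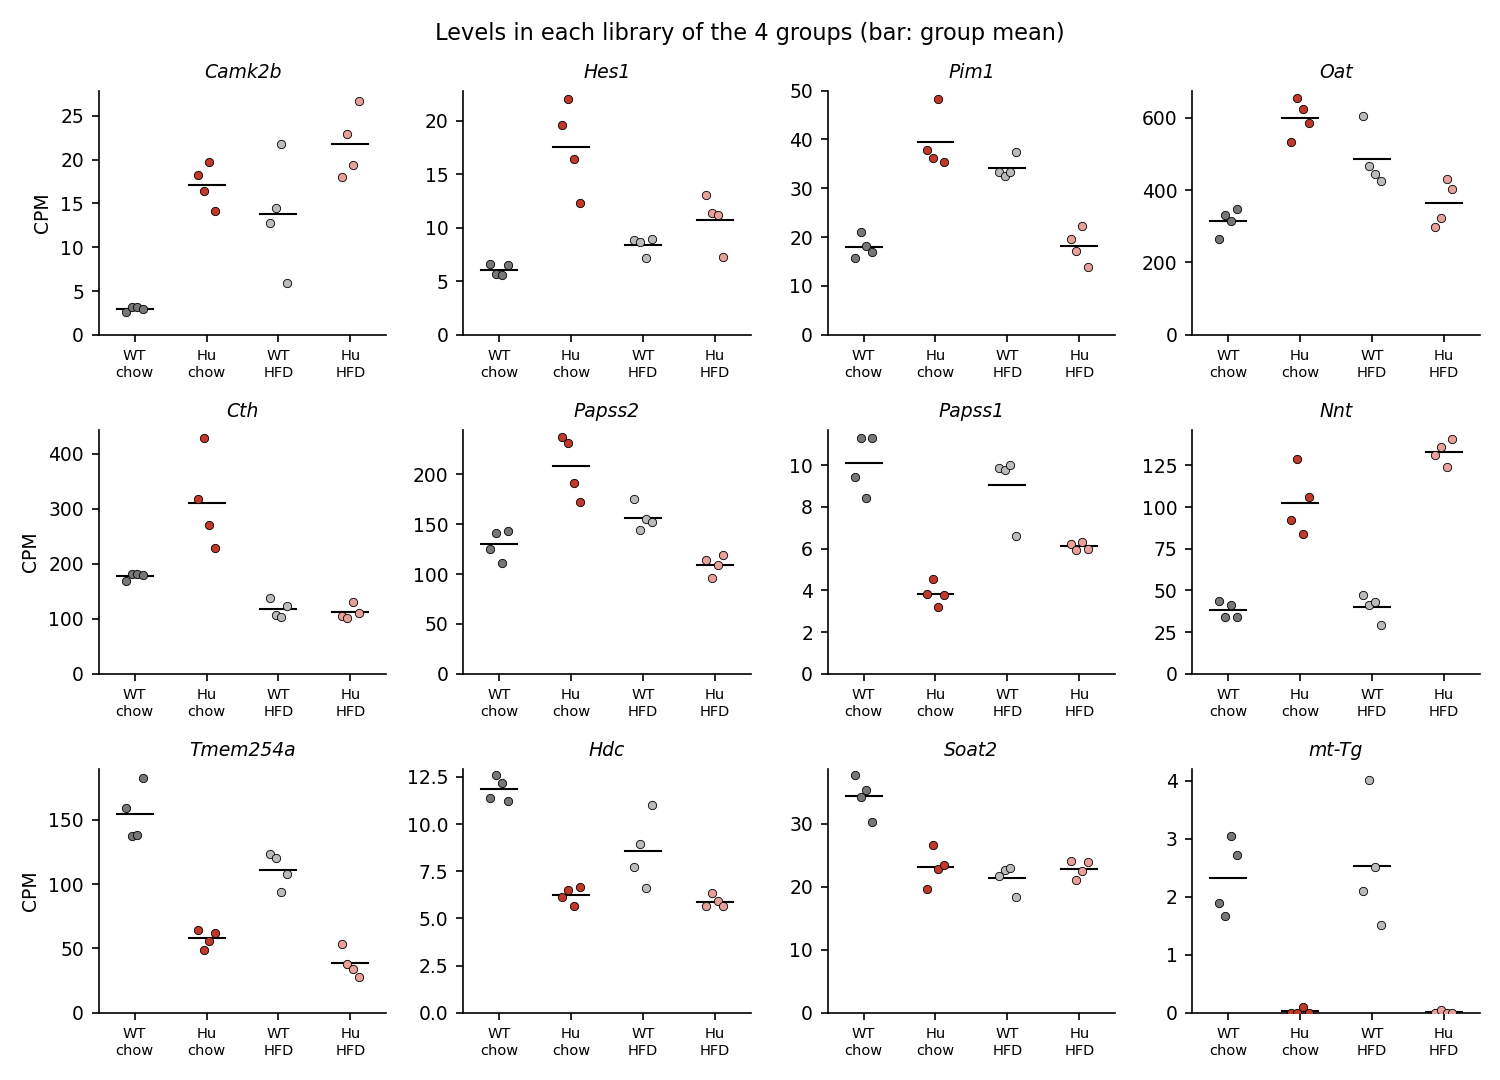
CPM of 12 genes in each of the 4 libraries of the 4 groups, with the group mean as a bar (Hu: HuMgat2). On chow the 2 genotypes do not overlap in any of the 12. On HFD Pim1 and Papss2 are turned round, Nnt, Tmem254a and mt-Tg look as on chow, and Cth and Soat2 overlap.

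The immediate early genes, which respond within minutes to growth factors or stress, leaned higher in HuMgat2 but differed more between libraries than the amino acid genes. Of 19 members 15 had a positive log2 difference, with a list median of 0.73. An unadjusted p below 0.05 was reached by 7, all higher, beside 5.57% of all genes in that direction. Only Btg2 was called. It held 4.11, 5, 7.93 and 8.9 CPM in WT and 21.5, 33.2, 6.5 and 39 CPM in HuMgat2. The other HuMgat2 libraries were high and library 15 lay inside the WT range (log2 difference 1.95 ± 0.40 SE, adjusted p = 0.0366). The call of Btg2 ended without any 1 chow library other than HuMgat2 library 15, at adjusted p up to 0.153, and also in limma voom and with the 8 chow libraries alone. Fos held 0.709, 0.648, 2.49 and 5.34 CPM in WT and 11, 11.5, 0.698 and 35.2 CPM in HuMgat2 (log2 difference 2.68 ± 0.77 SE, adjusted p = 0.174). Egr1 held 11.1, 9.9, 31.9 and 96.8 CPM and 197, 207, 20.3 and 162 CPM (log2 difference 1.97 ± 0.66 SE, adjusted p = 0.255). In all 3 genes WT library 8 was the highest WT library and HuMgat2 library 15 the lowest HuMgat2 library. The median member stood at 0.51 in WT library 8 and -0.30 in HuMgat2 library 15, against 0.38 to 1.19 in the other HuMgat2 libraries. Without HuMgat2 library 15, 3 members were called. On HFD the list's median was -0.17. The interaction was called for 3 of the 19 members, each lower on HFD, beside 4.87% of all genes. How fast each liver was taken is not in the labels, and its part in these values was not tested.

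The major urinary proteins, secreted carriers made by the liver under growth hormone control, had the highest median of the pathway lists, 0.84, but no call. The median member stood at 1.16, 0.93 and 1.47 in HuMgat2 libraries 13, 15 and 16 and at -2.24 in library 14. Mup1 held 1690 to 2920 CPM in WT and 5040, 166, 4800 and 7820 CPM in HuMgat2 (log2 difference 1.14, adjusted p = 0.667). Library 14 thus lay far below WT and the other 3 above it, and counts of these near-identical genes are uncertain for each gene alone. The 13 protein-coding genes of the mitochondrial genome had a list median of 0.54 and no call, with medians of 1.58 in HuMgat2 library 13 and 0.86 in WT library 8 and -0.68 to 0.31 in the other 6. Without HuMgat2 library 13 that list median was -0.055. Interferon response genes had 26 of 30 positive, 6 with an unadjusted p below 0.05, all higher, beside 5.57% of all genes, and a median of 0.25, and none was called. By library their median log2 value relative to the WT chow mean was 0.13 to 0.16 in HuMgat2 libraries 13, 14 and 16, below WT library 8 at 0.26, and 0.44 in HuMgat2 library 15. Matrix genes had 23 of 27 positive and 6 higher at that level, among them the elastin gene Eln (log2 difference 1.08 ± 0.24 SE, adjusted p = 0.052). By library the same median was 0.62 in HuMgat2 library 14, -0.04 to 0.17 in the other HuMgat2 libraries and -0.10 to 0.07 in WT. Their only call was the collagen cross-linker Loxl2, lower at 2.72 to 4.33 CPM against 5.62 to 6.9 CPM (log2 difference -0.82 ± 0.17 SE, adjusted p = 0.0333). Loxl2 overlaps Gm27177 and Gm37513, which fell too, on the opposite strand, and its call ended without WT library 5, 6 or 8 or HuMgat2 library 14, 15 or 16 and with the 8 chow libraries alone, at adjusted p up to 0.121.

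**Figure D4:**
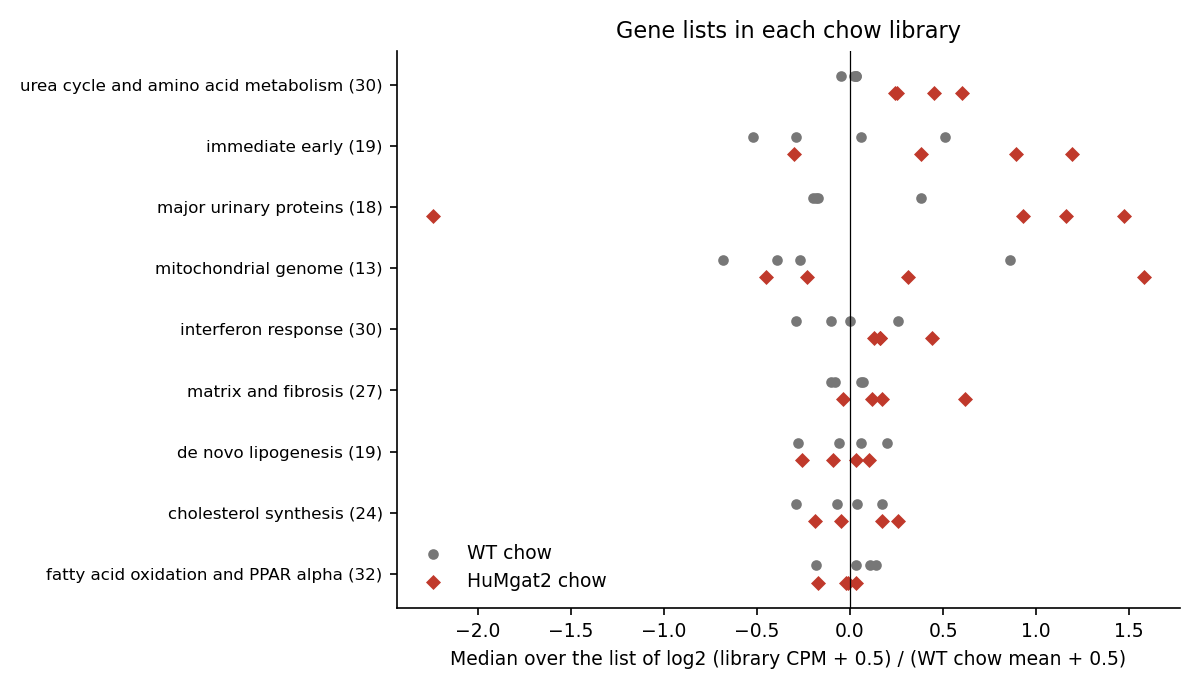
For 9 gene lists (number of tested members in brackets), the median over the members of the log2 ratio of a library's CPM to the WT chow mean, with 0.5 CPM added to both, in each of the 4 WT (circles) and 4 HuMgat2 (diamonds) chow libraries. Of these 9 lists, the groups are apart for the amino acid list. Lists not shown were apart too, among them acute phase and inflammation, cell cycle, the substrain list and lymphocyte markers. HuMgat2 library 14 lies at -2.24 for the major urinary proteins.

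In all, 25 of 30 pathway lists held no called member on chow. The lists had 6 to 34 tested members and 0.508% of all genes were called, so most lists would hold none in any case. Besides those named, Oat also counted among the pericentral hepatocyte genes. The list of genes that vary between mouse substrains held 4 calls among 7 tested members. Entpd4 and Entpd4b among them are near-identical copies and not separate observations. Among 11 lists of cell markers only the stellate list held a call, Acta2, smooth muscle actin. It held 1.65, 0.694, 0.589 and 0.544 CPM in WT and 1.74, 3.07, 2.95 and 4.26 CPM in HuMgat2 (log2 difference 1.79 ± 0.37 SE, adjusted p = 0.0345). The highest WT and the lowest HuMgat2 library nearly met. Its call ended without WT library 6, 7 or 8 or HuMgat2 library 14, 15 or 16 and with the 8 chow libraries alone, at adjusted p up to 0.131. The summed level of the 14 stellate markers was 308 to 419 CPM in WT and 289 to 479 CPM in HuMgat2. In whole liver, more cells of a type and more RNA per cell cannot be told apart. The summed erythroid markers did not overlap, at 57.5 to 65.4 CPM in WT and 73.8 to 99.8 CPM in HuMgat2, though none of 6 tested members was called and Alas2 alone had an unadjusted p below 0.05. The part of red cell RNA in any result was not tested. Summed macrophage, lymphocyte, neutrophil, endothelial, cholangiocyte, adipocyte, pancreas and kidney markers overlapped between the genotypes. Of 7 tested lymphocyte members 1 had a positive log2 difference, and the list median was -0.78. None was called, and 2 were lower at an unadjusted p below 0.05 in edgeR's test, beside 5.19% of all genes. By library their median was -0.71 to -0.21 in HuMgat2 and -0.15 to 0.16 in WT. Ly6g of the neutrophil, Lep of the adipocyte and 6 of the 12 pancreas markers were at 0 in the 8 chow libraries.

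A second group of genes differed in the same way on both diets. Of the 46 genes higher on chow, 13 (28.3%) were also called higher on HFD, beside 7.21% of all genes. Of the 42 lower, 26 (61.9%) were also called lower, beside 7.56% of all genes. Of these 26, 9 lay in a single stretch of chromosome 14 and 6 in a single stretch of chromosome 4. Several of them had near-identical counts, so the 26 are fewer independent observations. The HFD groups are other libraries than the chow groups. In all 39 the HFD groups did not overlap either, but these genes were picked by their HFD call, so this is no further evidence. The interaction was called for 3 of the 39, beside 4.87% of all genes. The largest fall was in mt-Tg (ENSMUSG00000064359, mitochondrial positions 9391 to 9458, plus strand), the mitochondrial transfer RNA for glycine. It held 1.89, 1.67, 3.04 and 2.72 CPM in WT on chow, 198 counts in all. In HuMgat2 on chow 3 libraries had 0 and library 15 held 0.107 CPM, 2 counts in all, a ratio of WT to HuMgat2 of 95.2 after scaling to library size (95% counting interval 26 to 792, adjusted p = 3.95e-05). On HFD it held 1.51 to 4.01 CPM in WT and at most 0.0443 CPM in HuMgat2. Of 32 mitochondrial genes tested it was the only one called. The gene is short enough to show whole, as given by GENCODE M21 for the GRCm38 mitochondrial genome, 68 bases, 5′ to 3′.

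mt-Tg: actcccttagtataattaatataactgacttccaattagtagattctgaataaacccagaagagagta

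Genes of the list known to vary between mouse substrains were part of this group. Nnt, the mitochondrial transhydrogenase that feeds NADPH to glutathione recycling and is partly deleted in a common laboratory substrain, held 43.4, 34.2, 41.3 and 34.3 CPM in WT on chow. In HuMgat2 it held 92.1, 129, 83.8 and 106 CPM, 2.68-fold more (log2 difference 1.42 ± 0.15 SE, adjusted p = 4.57e-05). On HFD it held 29.3 to 47.3 CPM in WT and 124 to 141 CPM in HuMgat2 (log2 difference 1.72, adjusted p = 2.71e-06). The endosomal adaptor Wdfy1 held 18.2 to 24.6 CPM in WT and 38.9 to 46.7 CPM in HuMgat2 on chow (log2 difference 1.02 ± 0.12 SE, adjusted p = 0.000147) and rose by 1.29 on HFD (adjusted p = 4.54e-06). Entpd4, a nucleotidase of the Golgi and lysosome, held 26.5 to 27.3 CPM in WT and 15.8 to 18.3 CPM in HuMgat2 on chow (log2 difference -0.66 ± 0.08 SE, adjusted p = 0.000263). Its near-identical copy Entpd4b gave counts within 6.17% of it and is not a separate observation. Entpd4 overlaps Gm16867 and Entpd4b overlaps Gm27177, each on the opposite strand, and both of these predicted genes fell too. All of them belong to the chromosome 14 stretch described below. The part of this overlap in the Entpd4 values was not tested. Nlrp12, Cyfip2 and Ide of the same list were not called (adjusted p = 0.405, 0.915 and 0.951), and Crb1 had 0 counts. This list was chosen with the results of these libraries known. The substrain of either genotype is not in the labels, so substrain and humanized allele cannot be told apart.

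Called genes also lay close together on a few chromosomes. Taking called genes less than 1 Mb apart, 9 groups held 33 of the 88. On chromosome 14, between 69515050 and 69933283 (GRCm39), 10 of 15 tested genes were called, all 10 lower, and 9 of them were lower on HFD too, Loxl2 being the exception. They included Gm16867 and Gm27177, each 17 counts in HuMgat2 against 862 and 823 in WT, with Gm16867 at 9.48 to 11.2 CPM in WT and 0.14 to 0.323 CPM in HuMgat2. These 2 genes had counts within 6.7% of each other, as Gm20236 and Gm37094 did within 0.429%, and Gm38378 and Gm37513 were equal in every library, so the 10 calls are fewer independent observations. Gm21451 in the same stretch fell 3.57-fold. On chromosome 4, between 41893388 and 42244913, 6 of 16 tested genes were called, all lower on both diets. There Gm17167 held 4.31 to 5.19 CPM in WT and 0.114 to 0.234 CPM in HuMgat2, and Gm13301, which overlaps it, fell from 3.72 to 5.27 CPM to 0.14 to 0.43 CPM. These stretches hold families of near-identical copies, and the counting command shows no option to count reads that match several places. Whether they differ in copy number between the mice was not tested. By chromosome, 15 of 605 tested genes were called on chromosome 14 (2.48%) and 14 of 1038 on chromosome 4 (1.35%), against 0.508% over all.

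Other genes of this group lay alone or in pairs. Tmem254a, a membrane protein gene, held 159, 137, 138 and 182 CPM in WT and 64.6, 49, 55.4 and 62.1 CPM in HuMgat2 (log2 difference -1.41 ± 0.17 SE, adjusted p = 0.000181) and fell by 1.53 on HFD. Plac9a beside it fell by 1.34 on chow and 1.29 on HFD. Ifi208, of the interferon-inducible p200 family, held 122 counts over the WT and 9 over the HuMgat2 chow libraries, 1.06 to 2.18 against 0 to 0.228 CPM (log2 difference -3.68 ± 0.56 SE, adjusted p = 0.00248). Nbea, a scaffold of membrane traffic, rose 2.5-fold from 4.75 to 6.94 CPM to 11.6 to 16.1 CPM (adjusted p = 4.1e-05) and by 1.24 on the log2 scale on HFD. Thymidine phosphorylase (Tymp) rose 2.71-fold (adjusted p = 0.0268), the zinc finger gene Bnc2 rose 9.27-fold to at most 1.06 CPM (adjusted p = 0.0175), and Elf5 and Lrmda fell by 1.43 and 2.27 on the log2 scale (adjusted p = 0.0238 and 0.0197). The chow calls of these 4 and of Plac9a ended when a chow library was left out, WT library 5 in each case and others besides, at adjusted p up to 0.123. Gm15446, a predicted gene of chromosome 5, fell 3.35-fold on chow and by 1.93 on the log2 scale on HFD.

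The other called genes were not called in the same direction on HFD. Of the 88, 37 were not called on HFD, 21 of them with the same sign as on chow. The interaction was called for 28 of the 37, beside 4.87% of all genes. Another 12 were called in the opposite direction on HFD, and all 12 were called by the interaction. The interaction uses the chow libraries that picked these genes, and opposite calls make an interaction call likely. These counts are therefore a description. Higher on chow and lower on HFD were Pim1, Papss2, Mnt, Slc2a1, Arhgef37, Hmgn2, Pxmp2, Cnbd2 and Cep85. Slc2a1, the glucose transporter GLUT1, held 7.23, 6.52, 6.44 and 7.46 CPM in WT and 11.3, 11.6, 9.99 and 9.32 CPM in HuMgat2 on chow (log2 difference 0.61 ± 0.11 SE, adjusted p = 0.0135). On HFD it held 9.33 to 11.1 CPM in WT and 5.58 to 7.04 CPM in HuMgat2, so the genotypes had changed places (log2 difference -0.74, adjusted p = 0.000407). Its chow call ended without WT library 6 or 7 or HuMgat2 library 13, at adjusted p up to 0.0608. Cep85, a centrosomal protein, held 71.9 to 107 CPM in WT and 152 to 246 CPM in HuMgat2 on chow (log2 difference 1.01 ± 0.18 SE, adjusted p = 0.01). On HFD it held 276 to 303 CPM in WT and 128 to 223 CPM in HuMgat2.

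Lower on chow and higher on HFD were the protocadherin Pcdh18, the interleukin-22 receptor chain Il22ra1 and Pcp4l1. Pcp4l1 held 8.6, 4.03, 8.98 and 7.41 CPM in WT and 3.1, 2.58, 3.76 and 3.65 CPM in HuMgat2 on chow (log2 difference -1.15 ± 0.23 SE, adjusted p = 0.0335). On HFD it held 1.17 to 2.14 CPM in WT and 5.4 to 7.26 CPM in HuMgat2 (interaction adjusted p = 8.35e-05). Its chow call ended without any 1 chow library other than WT library 6 and with the 8 chow libraries alone, at adjusted p up to 0.133. Of the other 11 opposite genes, the calls of 6 (Papss2, Arhgef37, Hmgn2, Pxmp2, Pcdh18 and Il22ra1) also ended without WT library 5. The number of opposite genes was 6 without WT library 5 or HuMgat2 library 13, 7 without WT library 7, 22 without HuMgat2 library 14 and 33 without WT HFD library 4.

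**Figure D5:**
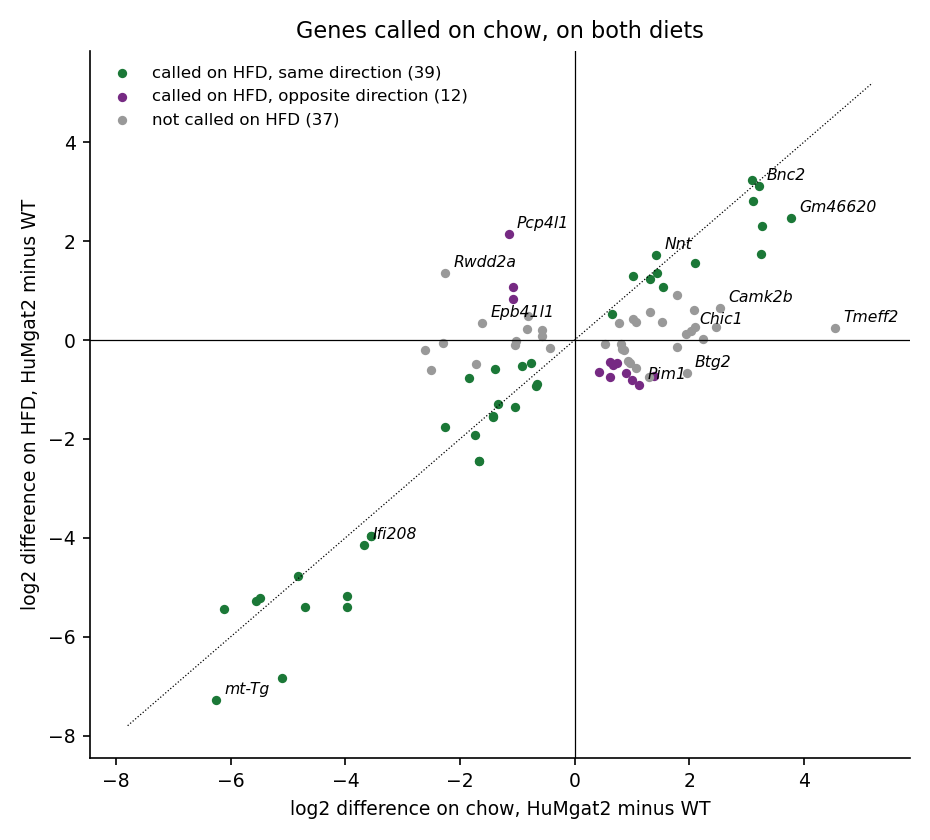
Log2 difference of HuMgat2 minus WT on chow (x axis) and on HFD (y axis) for the 88 genes called on chow, with the dotted line marking equal differences. The 39 genes called on HFD in the same direction lie in the lower left and upper right, the 12 called in the opposite direction lie in the other 2 quadrants, and 37 were not called on HFD.

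Of the 10 genes with the smallest interaction p, Pim1 and Pcp4l1 were called on chow and the other 8 were not. Slc22a27, a transporter of the organic anion family, held 1.25 to 2.46 CPM in WT and 1.18 to 1.36 CPM in HuMgat2 on chow (log2 difference -0.51, adjusted p = 0.432), and 18.1 to 22 CPM in HuMgat2 on HFD against 0.501 to 1.3 CPM in WT. E-cadherin (Cdh1) held 48.6 to 70.1 and 37 to 52.8 CPM on chow (log2 difference -0.26, adjusted p = 0.713), and on HFD 20 to 49.9 CPM in WT and 3.36 to 4.66 CPM in HuMgat2. The other 6 were Adam11, Cyp2c38, Gpcpd1, Ugdh, Slc22a29 and Cyp2c70, with chow log2 differences between -0.64 and 0.51 and adjusted p of 0.174 to 0.819. Ugdh, which makes UDP-glucuronate, held 238 to 258 CPM in WT and 161 to 202 CPM in HuMgat2 on chow, without overlap (unadjusted p = 0.003 in edgeR's test).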

How the data were processed

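The deposited file held read counts per gene name for 16 liver libraries; the authors counted read pairs with featureCounts 2.0.1 on Ensembl 103 (GRCm39), per the file headers, after STAR 2.7 alignment to mm39, per the submitters' processing notes. Only pairs with both ends mapped were counted. The header's command line shows no strand option although the kit is stranded, per the labels' protocols, so reads of genes overlapping on opposite strands were not told apart. It also shows no option to count reads that overlap several genes or match several places. Of 53008 gene names 33954 had a count, and 78 joined several loci. The 64 records are 4 per library and were joined by library name.

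Counts were fitted with edgeR 4.0.16 (R 4.3.3; TMM scaling, filterByExpr, quasi-likelihood F test) over all 16 libraries as 4 groups, with contrasts for chow, HFD and their interaction. P-values were Benjamini-Hochberg adjusted over 17318 genes, and a gene was called at adjusted p below 0.05. CPM used TMM-scaled library sizes. Count ratios carry a 95% interval for counting error only. Alternatives were DESeq2 1.42.0, limma 3.58.1 voom, other scalings, filters and sets of libraries, and leaving out each library. The script was tested on simulated data. Figures used matplotlib 3.10.9.

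Genes were named by rule: the MGAT and DGAT family, the 12 largest increases and 12 largest decreases averaging at least 1 CPM without overlap, up to 5 called members per list, up to 10 called on both diets in the same direction, and the 10 smallest interaction p-values; others are said to be chosen after their values were seen, or stand as examples from a list. The comparison, lists and rules were chosen with earlier results of these data known.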

Additional observations from a re-analysis of the deposited data

Results flagged for a closer look

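Single libraries stood far from the other 3 of their group in 17 cases, by the gap of the extreme library over the group's range. Chance gives such a case in about 1 in 20 groups. The number of groups searched is not given here, so the 17 are a description. The case of Tmeff2 rests on 5 counts over the WT libraries, and that of mt-Tg on few counts too. In WT, library 6 was high for Atp4a at 0.601 CPM against 0.378 to 0.408, for Cyp2c70 at 213 CPM against 155 to 160, for Mup1 at 2920 CPM against 1690 to 1760 and for Tmeff2 at 0.0925 CPM against 0.0453 to 0.0494, and low for Cyfip2 at 2.45 CPM against 4.06 to 4.35. WT library 5 was high for Acta2 at 1.65 CPM against 0.544 to 0.694 and low for Ass1 at 1760 CPM against 2020 to 2060. WT library 8 was high for Elf5 at 5.44 CPM against 2.63 to 3.07 and low for Pcdh18 at 1.48 CPM against 1.7 to 1.72. In HuMgat2, library 15 was high for Gm4316 at 18 CPM against 4 to 5.76, for Gm20236 and its copy Gm37094 at 4.57 CPM against 2.39 to 2.67, for Fasn at 807 CPM against 623 to 649 and for mt-Tg at 0.107 CPM against 0 in each of the others. HuMgat2 library 14 was high for Got1 at 259 CPM, with the lowest of the others at 84.2 CPM, and low for Nlrp12 at 5.16 CPM against 13.8 to 14.1, and HuMgat2 library 13 was high for Cd36 at 51.3 CPM against 43.3 to 44.

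The genotype difference itself differed between the diets, by the interaction test at adjusted p below 0.05, for 45 named genes. The values in brackets are the log2 genotype difference on HFD minus that on chow. Among genes called higher on chow the change was negative in each case: Tmeff2 (-4.30), Btg2 (-2.62), Gm12718 (-2.22), Gm42031 (-2.20), Cnbd2 (-2.12), Pim1 (-2.04), Camk2b (-1.89), Atp4a (-1.85), Chic1 (-1.84), Cep85 (-1.82), Gm43305 (-1.82), Arhgef37 (-1.57), Oat (-1.35), Slc2a1 (-1.35), Gm46620 (-1.32), Mnt (-1.21), Papss2 (-1.19), Hes1 (-1.18), Pxmp2 (-1.07), Hmgn2 (-1.06) and Cth (-0.88). Among genes called lower on chow it was positive in each case: Rwdd2a (3.61), Pcp4l1 (3.30), Pcdh18 (2.14), Epb41l1 (1.95), Il22ra1 (1.90), Gm21451 (1.06), Loxl2 (1.05), Ppp1r10 (0.94), Papss1 (0.82) and Soat2 (0.66). Genes picked for a difference on chow lean this way by that choice, so the signs are a description. Named genes not called on chow were Slc22a27 (4.90), Slc22a29 (3.29), Cyp2c38 (2.63), Csad (2.49), Cd36 (1.95), Ugdh (1.76), Hpd (-1.07), Cps1 (-1.24), Prodh (-1.43), Got1 (-1.47), Cyp2c70 (-2.88), Cdh1 (-2.95), Gpcpd1 (-2.97) and Adam11 (-3.24).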

How the results depend on the processing

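None of the 88 genes called on chow turned direction under an alternative that tested it, and the median log2 difference over all genes lay between -0.0034 and 0.011 in the alternatives. Of the 88 chow calls, 49 were called with every chow library left out in turn and in every alternative that tested them, some being left out by the gene set or filter of an alternative. All 88 were called with DESeq2, with its size factors in edgeR and without WT HFD library 4, 87 without mitochondrial, ribosomal RNA and hemoglobin genes, 83 with limma voom and 65 with the 8 chow libraries alone.

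The number higher on chow was 133 with DESeq2, 77 with limma voom, 112 without WT HFD library 4 and 27 to 63 with a library left out. The number lower was 105 with DESeq2, 92 without WT HFD library 4 and 26 to 57 with a library left out. Within 10 Mb of Mogat2 DESeq2 called 2. Amino acid genes called higher numbered 9 with DESeq2, 6 with limma voom, 5 without a filter, 6 without WT HFD library 4 and 1 to 4 with a library left out. Immediate early genes called numbered 2 with DESeq2, without a filter and without WT HFD library 4, 0 with the 8 chow libraries alone and 0 to 3 with a library left out. The matrix call (lower) and the stellate call were 0 with the 8 chow libraries alone and 0 to 1 with a library left out, and the pericentral list had 1 to 3. Chow calls of the same direction on HFD numbered 62 with DESeq2, and those of the opposite direction 40 with DESeq2, 25 with limma voom, 20 without a filter, 33 without WT HFD library 4 and 6 to 22 with a library left out.

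With a library of the comparison left out, 829 to 1232 genes were higher and 756 to 1403 lower on HFD, and 529 to 976 had an interaction. Without WT HFD library 4 these were 1303, 1198 and 1129. The cause of these changes was not tested. No paired analysis was possible because the groups share no replicate numbers. Genes under about 1 CPM, 15 of the 88 calls, rest on few counts.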

Other observations

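Beside the comparisons above, the acute phase and inflammation list had 22 of 29 tested members with a positive log2 difference on chow. Of the 29, 7 were higher without overlap, against 6.62% of all genes without overlap in either direction. The median of the list was 0.37 and there was no call. Taken library by library against the WT chow mean, its median member stood at 0.18 to 0.36 in HuMgat2 and -0.22 to 0.14 in WT, without overlap. On HFD 28 of the 29 were negative, 8 were called lower, and the median was -1.2. The interaction was called for 4 members, each lower on HFD. Male-biased liver genes had a median of 0.083 on chow with no call and -1.1 on HFD with 12 called lower, and the interaction was called for 8 of 24. The NRF2 and glutathione list had a median of -0.066 on chow with no call and 0.74 on HFD with 15 called higher and 1 lower, and the interaction was called for 10 of 25. Over all genes 7.21% were called higher and 7.56% lower on HFD, and 4.87% by the interaction.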
